A study of Homo sapiens with 6 samples.

Results

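Peaks of CTCF and of the cohesin subunit SMC1 were examined at 10 genes that build the nuclear lamina or maintain heterochromatin, out of 19675 protein-coding genes with a known start. The list was drawn up by gene function: the lamins LMNA, LMNB1 and LMNB2, the lamin B receptor LBR, the Polycomb genes EZH2 and SUZ12, the DNA methylation genes DNMT1 and UHRF1, and CBX5 and SUV39H1 of the H3K9 methylation pathway. Every peak that overlapped a gene body, or the 20 kb on either side of it, by at least 1 bp was taken. These windows spanned 898.29 kb together and held 117 peaks, 48 of CTCF and 69 of SMC1.

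The peaks came from CUT&Tag, in which a transposase is tethered by an antibody to chromatin bearing the antibody's target and the fragments it releases are sequenced. All 6 libraries were made from IMR90, a strain of human fetal lung fibroblasts that divides for a limited number of passages. For each antibody there was 1 library of proliferating control cells, 1 of cells treated with inflachromene (ICM), a small molecule that binds the chromatin proteins HMGB1 and HMGB2, and 1 of cells grown to high passage until replicative senescence. The titles give a p number, read here as the passage, of 21 for the CTCF control, 16 for CTCF after ICM and 34 for CTCF in senescent cells. For SMC1 the same numbers were 16, 16 and 34. A treatment of 6 days is stated for the ICM library of CTCF, whereas no duration is stated for that of SMC1. With 1 library per group nothing could be set against a spread between cultures, so all comparisons between conditions are descriptions, and condition and library cannot be told apart. Passage differs along with condition in every comparison except that of SMC1 between control and ICM-treated cells. The list alone also does not tell whether fewer cells carried a protein at a site or each cell carried less of it.

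The nuclear lamina is a meshwork of A-type and B-type lamins under the inner nuclear membrane, to which large stretches of silent chromatin are attached. Silencing marks are laid down by separate enzymes: EZH2 and SUZ12 belong to the complex PRC2 that methylates H3K27, SUV39H1 methylates H3K9, CBX5 encodes HP1α that binds methylated H3K9, and UHRF1 guides DNMT1 to copy DNA methylation after replication. Loss of lamin B1 and a remodelling of heterochromatin are known marks of senescent fibroblasts. CTCF binds DNA in a sequence-specific manner and halts cohesin, a ring that extrudes chromatin loops, while cohesin is also found at active promoters and enhancers.

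A peak list holds the top 1% of regions by signal in its own library, as SEACR calls them, so a site without a listed peak is not shown to be unoccupied. The lists had 4673, 6728 and 8577 CTCF peaks in control, ICM-treated and senescent cells, and 14883, 17809 and 12927 SMC1 peaks. No scale is shared between lists and the depth of each library is unknown, so the strength of a peak is given as its percentile within its own list, where 100 is the strongest, by total signal (coverage summed over the peak) unless the highest signal is named. The summit of a peak is the middle of the stretch where its signal is highest, and a promoter peak is a peak with its summit within 1 kb of the outermost start of a gene. Distances from a gene start are positive into the gene. Among 10 fibroblast marker genes, SMC1 promoter peaks were listed at 6 in control, at 5 after ICM and at 3 in senescence, and only VIM and COL1A2 had one in all 3 lists. COL3A1, THY1, S100A4 and DCN had none in any. Of 9 marker genes of other cell types 1, 0 and 1 had an SMC1 promoter peak, and that gene was the keratin KRT8 in both lists. A promoter peak is not a measure of expression, so these counts check the label only loosely.

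Promoter sequences are shown first for the 4 genes with a CTCF or SMC1 promoter peak in any list, because the differences between conditions below concern these windows. They were read from RefSeq on GRCh38.p14, 5′ to 3′ on the strand of the gene, and run from 250 bases before a start through 30 bases from the start on. LMNB1 is shown at its inner start, chr5:126776886-126777165 on the plus strand, which lay within the control SMC1 peak and the ICM CTCF peak described below. EZH2 is at chr7:148884262-148884541, DNMT1 at chr19:10194924-10195203 and CBX5 at chr12:54280093-54280372, all on the minus strand. Capitals mark matches to CCAAT, the NF-Y box, on either strand (ATTGG on the other strand), and matches to the E2F site written as TTTCGCGC or TTTGGCGC on either strand. No match of one motif overlapped a match of the other in these 4 windows.
LMNB1: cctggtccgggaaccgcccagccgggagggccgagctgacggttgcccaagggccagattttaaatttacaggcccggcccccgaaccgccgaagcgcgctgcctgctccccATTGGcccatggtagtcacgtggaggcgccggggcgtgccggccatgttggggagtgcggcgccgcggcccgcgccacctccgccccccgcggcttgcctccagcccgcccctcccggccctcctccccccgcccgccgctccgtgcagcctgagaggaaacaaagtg
EZH2: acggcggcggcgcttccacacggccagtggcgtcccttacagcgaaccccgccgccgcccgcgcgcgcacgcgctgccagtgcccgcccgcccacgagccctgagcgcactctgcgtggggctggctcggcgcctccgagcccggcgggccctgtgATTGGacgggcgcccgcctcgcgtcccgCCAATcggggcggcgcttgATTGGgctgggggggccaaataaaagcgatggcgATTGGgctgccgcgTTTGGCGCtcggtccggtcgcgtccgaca
DNMT1: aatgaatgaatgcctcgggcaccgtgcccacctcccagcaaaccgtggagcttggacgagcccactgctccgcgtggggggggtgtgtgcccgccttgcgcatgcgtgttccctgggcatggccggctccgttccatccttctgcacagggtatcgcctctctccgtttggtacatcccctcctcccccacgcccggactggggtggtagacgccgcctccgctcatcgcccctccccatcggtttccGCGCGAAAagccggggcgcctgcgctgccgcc
CBX5: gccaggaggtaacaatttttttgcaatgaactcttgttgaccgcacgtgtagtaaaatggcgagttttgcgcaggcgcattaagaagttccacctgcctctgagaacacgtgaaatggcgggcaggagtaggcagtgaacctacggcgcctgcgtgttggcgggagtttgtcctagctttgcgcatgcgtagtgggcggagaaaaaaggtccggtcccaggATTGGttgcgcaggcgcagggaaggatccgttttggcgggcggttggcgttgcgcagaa

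E2F factors and NF-Y are known to act at genes transcribed in proliferating cells. With the start counted as position 0, the E2F match of EZH2 covered positions 1 to 8 and that of DNMT1 positions -2 to 5, so both lay across or beside the start. UHRF1 held a match at -160 to -153 from the start at the middle of its 3 tabulated ones. Thus 3 of the 19 windows of these genes in the table held the E2F letters, against 1.50% of 22199 windows of protein-coding genes. EZH2 carried 4 CCAAT matches, at -94 to -90, -66 to -62, -47 to -43 and -13 to -9. In all, 10 of the 19 windows held CCAAT, in 7 of the 10 genes, against 34.7% of coding windows. The CHR element TTTGAA, another letter pattern of cell cycle promoters, was found in 2 windows, those of LMNB2 and SUZ12, against 12.4%. The core consensus of the CTCF motif, searched on both strands, was in 0 of 19 windows, against 1.51% of coding windows. The windows of these genes had a median GC content of 69.0% and 30 CpG, compared with 62.3% and 21 over coding windows. A match is a run of letters and not a shown site, and windows of genes with several starts partly overlap.

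A window peak was found for 7, 7 and 6 of the 10 genes in the CTCF lists of control, ICM-treated and senescent cells, where 31.4%, 40.3% and 43.2% of all protein-coding genes had one. In the SMC1 lists 8, 6 and 5 of the genes had a window peak, against 58.5%, 58.7% and 52.2% of all genes. The windows of these genes were longer than usual, with a median of 98.3 kb against 64.8 kb, so these shares are not matched for window length. LMNA, LMNB2, DNMT1, UHRF1 and CBX5 had a peak in each of the 6 lists, which is 5 of 10 genes beside 23.5% of all genes. In the senescent SMC1 list DNMT1 counted only by the edge of a peak whose summit lay outside the window. SUV39H1 alone had none in any, as did 28.4% of all genes. The heat map of peak counts shows how unevenly the peaks were spread.

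**Figure D1:**
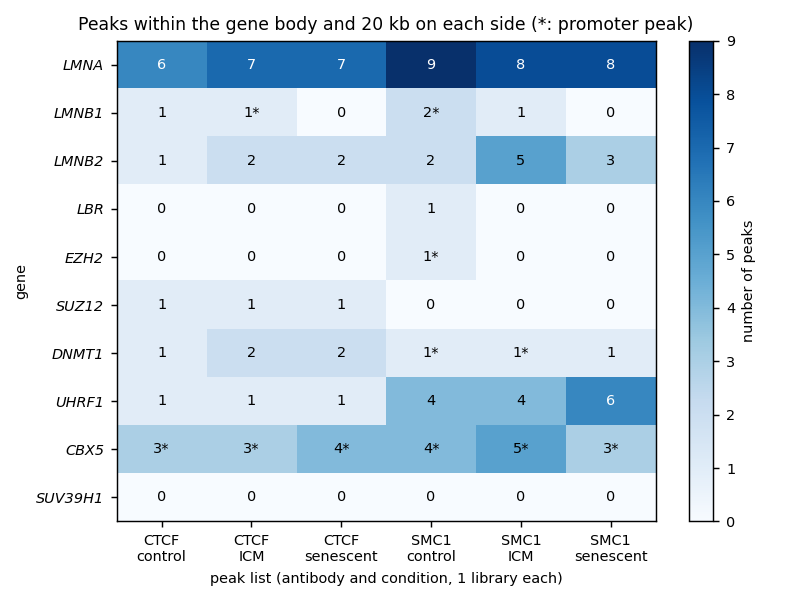
Number of peaks overlapping each gene body or the 20 kb on either side of it, for 10 genes (vertical axis) and 6 peak lists of 1 library each (horizontal axis), with an asterisk where at least 1 summit lay within 1 kb of the gene start. LMNA has 6 to 9 peaks in every list, and CBX5 is the only gene with an asterisk in all 6. LMNB1, LBR, EZH2 and SUV39H1 are at 0 in both senescent lists. Of these, LBR, EZH2 and SUV39H1 are at 0 in every CTCF list.

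LMNA held 45 of the 117 peaks (38.5%). Per 100 kb of window the 10 genes had 1.559, 1.892 and 1.892 CTCF peaks and 2.672, 2.672 and 2.338 SMC1 peaks in control, ICM-treated and senescent cells. Over all protein-coding genes these densities were 0.416, 0.575 and 0.676 for CTCF and 1.084, 1.182 and 0.935 for SMC1. Without LMNA the densities of the other 9 genes were 0.999, 1.249 and 1.249 for CTCF and 1.873, 1.998 and 1.623 for SMC1. These are pooled values. The median over the 10 genes was 0.99, 1.003 and 0.985 for CTCF, beside 0.0 over all genes in each list. For SMC1 the medians were 1.739, 0.99 and 0.492, beside 0.896, 0.972 and 0.446. After ICM and in senescent cells the SMC1 medians were thus close to those of all genes. Of all 117 peaks, 17 had their summit within 1 kb of the start of a neighbouring coding gene and not of the gene described, so part of what lies in these windows belongs to neighbours.

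Promoter peaks of CTCF were few at these genes. They were found at 1 gene in control, 2 after ICM and 1 in senescence, where 8.76%, 12.6% and 9.55% of all genes had one. CBX5 had a CTCF promoter peak in all 3 lists and LMNB1 in the ICM list. No gene had one in control and not in senescent cells (1.71% of all genes), none in control and not in ICM-treated cells (0.544%) and none in senescent and not in control cells (2.49%). LMNB1 was the 1 gene with a CTCF promoter peak after ICM and not in control, as were 4.40% of all genes.

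Promoter peaks of SMC1 were listed at 4 genes in control cells (LMNB1, EZH2, DNMT1 and CBX5), at 2 in ICM-treated cells (DNMT1 and CBX5) and at 1 in senescent cells (CBX5). Over all genes the shares were 31.6%, 27.6% and 22.3%, so the count among these genes declined in the same order as the share of all genes. Present in control and missing from the senescent list were 3 genes (LMNB1, EZH2 and DNMT1), beside 11.9% of all genes, and 2 genes (LMNB1 and EZH2) were missing from the ICM list, beside 6.97%. These shares are not matched for the share with a control peak. Of all 6215 genes with a control peak, 2341 were missing from the senescent list and 1371 from the ICM list. No gene had an SMC1 promoter peak that control cells lacked, neither after ICM (2.96% of all genes) nor in senescent cells (2.57%). Counted over whole windows, SMC1 peaks were present in control and absent from the senescent list for 3 genes (LMNB1, LBR and EZH2; 11.4% of all genes), and the opposite held for none (5.02%). For CTCF the same counts were 1 gene, LMNB1 (1.90%), and 0 genes (13.8%). With only peaks at or above the median total signal of each list, the genes with an SMC1 promoter peak in control and not in senescent cells were 1 instead of 3, LMNB1. EZH2 and DNMT1 were below the median of the control list.

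**Figure D2:**
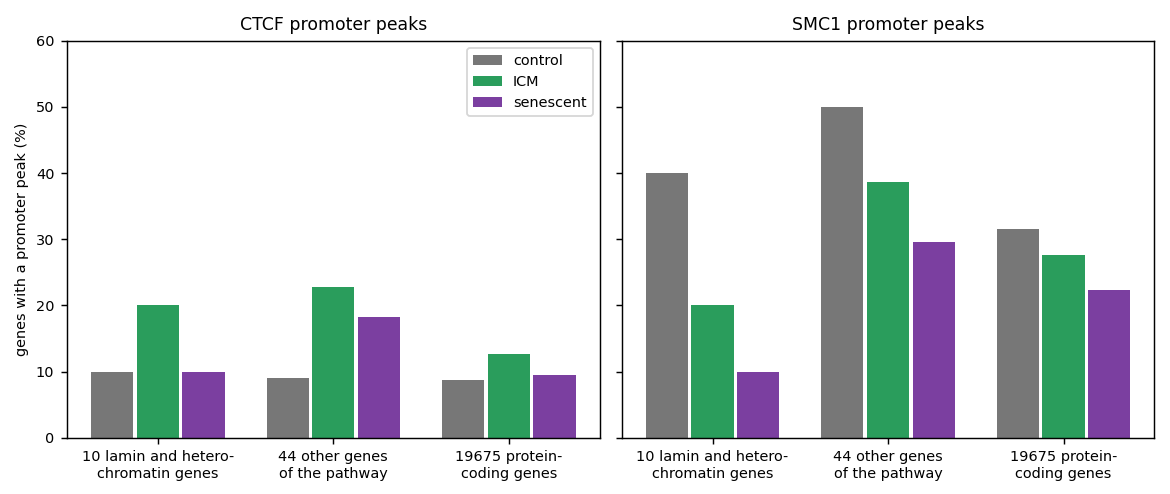
Percentage of genes (vertical axis, from 0) with a CTCF (left) or SMC1 (right) promoter peak among the 10 genes, 44 other genes of the same pathways and 19675 protein-coding genes, with a bar per condition and 1 library behind each bar. The SMC1 share falls from control to senescent cells in all 3 sets, from 40% to 10%, from 50% to 29.5% and from 31.6% to 22.3%.

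LMNB1 encodes lamin B1, and peaks of both proteins over its start were listed in control cells while neither senescent list held a peak in its window. In control cells SMC1 had a peak at chr5:126776522-126777249 with its summit 257 bp inside the gene, at percentile 69.2 by total signal and 80.9 by highest signal. A further SMC1 peak had its summit at 1792 bp, at percentile 54.0. After ICM only the inner site was listed, with its summit at 1826 bp and at percentile 74.4. The senescent SMC1 list held no peak in the window, and its nearest summit was 181.265 kb away from the gene start.

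CTCF at LMNB1 was weak but showed the same pattern of lists. Its control peak, chr5:126776376-126779043, spanned both the start and the inner SMC1 site, with the summit at 1826 bp and percentile 16.1. After ICM the peak chr5:126776522-126778847 had its summit at 313 bp and percentile 26. These peaks overlapped although their summits lay apart, so the promoter peak that appeared after ICM was the same broad region with a shifted summit. By highest signal they reached only percentiles 5.2 and 3.1, so the region was broad with a low top. In senescent cells the nearest CTCF summit was 175.679 kb away. The summits of all 5 peaks of the LMNB1 window in the 6 lists thus lay within 2 kb of its start, and the control and ICM lists held them all.

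**Figure D3:**
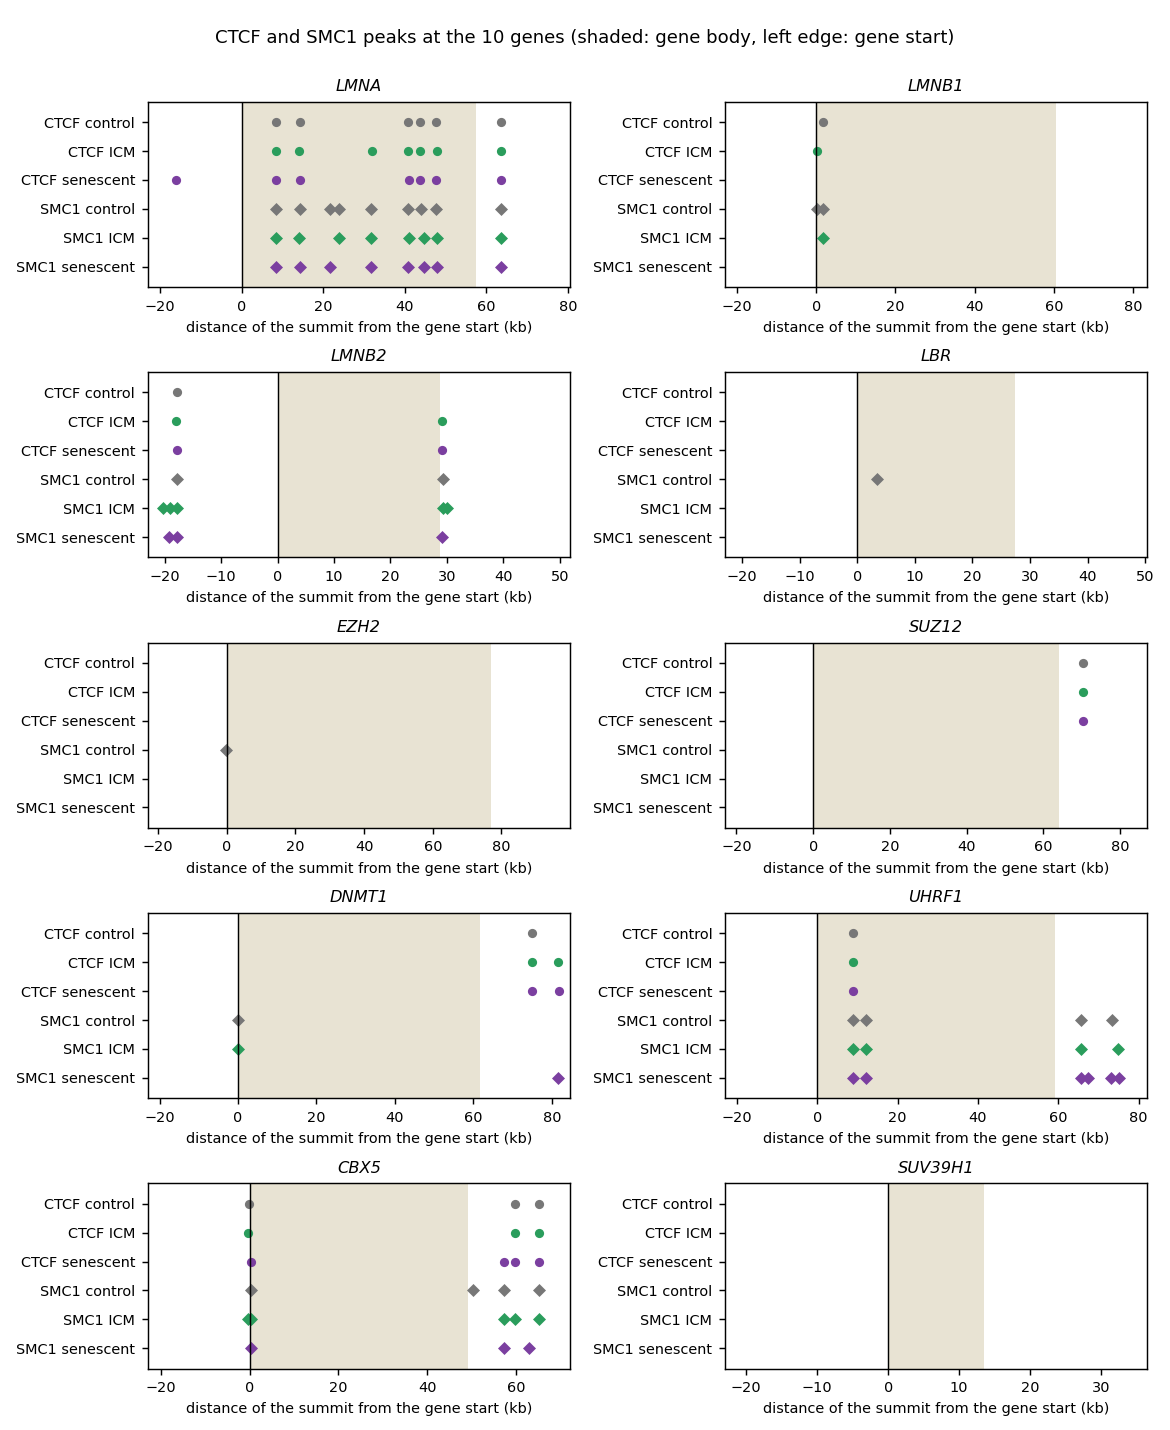
Position of every peak summit relative to the gene start (horizontal axis, kb, positive into the gene) in the 10 gene windows, with a row per list (circles CTCF, diamonds SMC1, grey control, green ICM, purple senescent) and the gene body shaded. LMNB1 has marks near 0 kb in the control and ICM rows alone, EZH2 and LBR each have 1 mark in the SMC1 control row, and UHRF1 has marks near 8.95 kb in all 6 rows.

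LMNA, which encodes lamins A and C, stood apart by the number of its peaks. Its window of 97.51 kb held 6, 7 and 7 CTCF peaks and 9, 8 and 8 SMC1 peaks in control, ICM-treated and senescent cells. This amounted to 6.153, 7.179 and 7.179 CTCF peaks per 100 kb, a density that 0.839%, 0.488% and 0.940% of all genes reached. For SMC1 the density was 9.23, 8.204 and 8.204 per 100 kb, reached by 1.09%, 2.10% and 1.57% of genes. None of these peaks lay at the outermost start, and the nearest summit was more than 8 kb inside the gene. The summits of SMC1 at 23.906 kb in control and 23.938 kb in ICM-treated cells lay 237 and 205 bp before the innermost of its 3 tabulated starts, at percentiles 37.7 and 41.2, and no senescent peak lay over them.

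Where summits of different lists for the same antibody lay less than 100 bp apart, directly or in a chain, the peaks were counted as 1 site. LMNA had 9 CTCF sites and 11 SMC1 sites, of which 5 of each were in all 3 lists. The sites at about 8.4, 14.2, 47.8 and 63.5 kb from the start were listed by all 6 lists. The site near 47.8 kb was strong throughout: CTCF was at percentiles 69.3, 79.9 and 88.6 and SMC1 at 95.5, 96.9 and 92.3 in control, ICM-treated and senescent cells. An SMC1 site at 31.8 kb was at percentiles 93.4, 94.7 and 53.2, and CTCF was listed there only after ICM, at percentile 8.2. This site therefore ranked among the strong SMC1 peaks in both low-passage lists and near the middle of the senescent list.

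The ranks of LMNA sites are given for both proteins side by side, each within lists of unequal length. At 8.4 kb CTCF was at percentile 0.2 in control, 24.9 after ICM and 73.7 in senescent cells, while SMC1 was at 44.3, 43.1 and 6.7. At 63.6 kb, which is 6 kb past the end of the gene, CTCF was at 1.3, 35.9 and 39.7 and SMC1 at 62.5, 87.2 and 44.5. Near 14.2 kb CTCF was at 61.5, 58.6 and 89.0 and SMC1 at 77.2, 83.6 and 54.9. In senescent compared with control cells, the CTCF rank was higher at 4 of 5 sites, where 21.1% of all shared CTCF sites were lower, and the SMC1 rank was lower at 5 of 5, where 55.1% of all were lower. The CTCF count was thus close to that of the whole lists. The shares over all sites pair only summits directly less than 100 bp apart, a rule that leaves out the LMNA SMC1 site at 31.8 kb. The exception for CTCF was the site at 43.7 kb, at percentiles 38.6, 63.9 and 6.1. By highest signal the SMC1 peak at 8.4 kb was instead higher in senescent cells, at percentile 58.3 against 52.9. Over 3376 CTCF sites in both control and senescent lists the median difference was 15.69 percentile points, and over 6299 SMC1 sites it was -1.94. After ICM compared with control cells, both proteins ranked higher at 47.8 and 63.5 kb. SMC1 was slightly lower at 8.4 kb and CTCF at 14.2 kb. Over all sites shared by these lists, 23.4% of CTCF and 38.9% of SMC1 sites ranked lower after ICM.

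**Figure D4:**
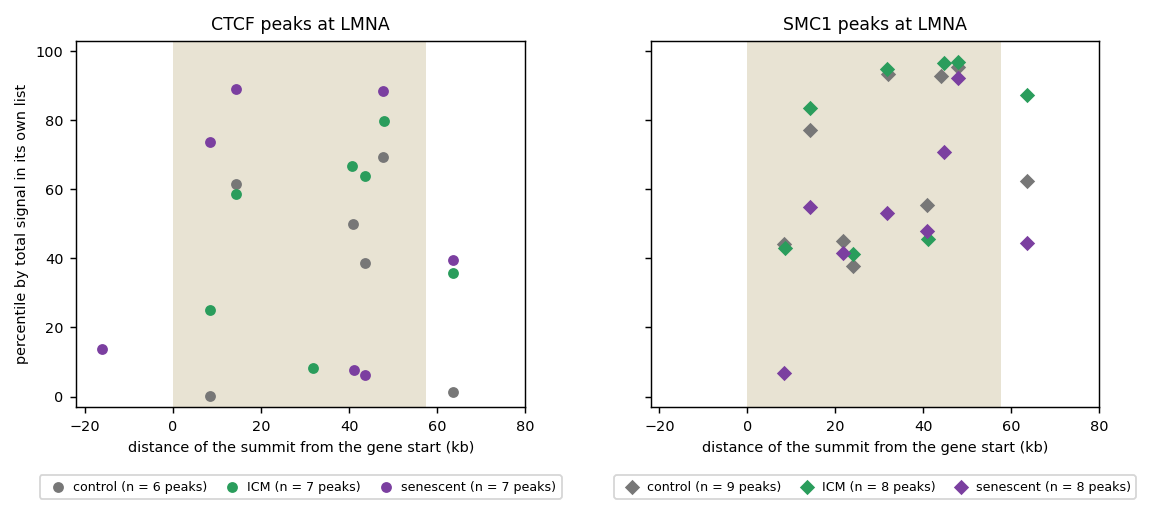
Percentile by total signal within its own list (vertical axis, 100 is the strongest) of every CTCF (left) and SMC1 (right) peak in the LMNA window against the distance of its summit from the gene start (horizontal axis, kb), coloured by condition, with the gene body shaded. At 8.4 kb the senescent CTCF peak (73.7) lies far above the control peak (0.2), and at 31.8 kb the senescent SMC1 peak (53.2) lies below those of control and ICM (93.4 and 94.7).

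LMNB2 encodes lamin B2. It had no summit within its gene body or at its own start in any list, and the summits of its 15 window peaks all lay about 18 to 20 kb upstream or within 1.3 kb past the end of the gene. The edge of the ICM CTCF peak at that end, chr19:2426332-2428905, reached into the gene body. The upstream group lay at GADD45B, a stress-inducible gene: SMC1 was listed in all 3 lists at 17.9 kb upstream, at percentiles 97.5, 72.5 and 86.5 in control, ICM-treated and senescent cells. SMC1 summits 72 bp before the GADD45B start after ICM and 13 bp inside it in senescent cells were at percentiles 31.3 and 32.2. CTCF was listed in this upstream group too, at 87.2, 93.7 and 79.6 in control, ICM-treated and senescent cells. The group past the gene end lay at the start of TIMM13, which encodes a mitochondrial import chaperone. CTCF was listed there after ICM (percentile 48.3) and in senescent cells (4.6) and not in control, and SMC1 in all 3 lists (37, 41.9 and 67), with a further SMC1 peak after ICM at 40.2.

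LBR encodes the inner membrane protein that tethers B-type lamins and HP1 proteins. Its only peak in the 6 lists was an SMC1 peak of control cells, chr1:225424654-225425765, with its summit 3.337 kb inside the gene and at percentiles 24.5 by total and 8.4 by highest signal. The nearest CTCF summits, at 46.368, 46.382 and 46.382 kb upstream of the start in control, ICM-treated and senescent cells, had SMC1 summits close by after ICM (46.415 kb) and in senescent cells (46.524 kb). In control cells the nearest SMC1 peak outside the window was likewise 45.37 kb from the gene. The lists thus differed at LBR by a low-ranked peak inside the gene, with the nearest peaks outside it at like distances.

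EZH2 encodes the catalytic subunit of PRC2. It had a single peak, an SMC1 peak of control cells at chr7:148884001-148884778 with its summit 113 bp before the start, at percentile 19.6 by total and 15.8 by highest signal. The whole promoter sequence shown above, with its E2F and CCAAT letters, lay inside this peak. After ICM and in senescent cells the nearest SMC1 peaks were 34.343 and 34.351 kb outside the gene, beside one at 34.379 kb in control cells. The nearest CTCF summits were 82.624, 82.622 and 82.667 kb upstream of the start in control, ICM-treated and senescent cells. The EZH2 promoter peak was thus a weak peak of its list, in the lowest 20% by both measures.

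SUZ12, the PRC2 subunit that holds the complex together, had no SMC1 peak in its window in any list. CTCF was listed in all 3, with summits 70.338, 70.308 and 70.309 kb from the SUZ12 start in control, ICM-treated and senescent cells, about 6.3 kb past the end of the gene and 38, 68 and 67 bp before the start of its neighbour LRRC37B. Its percentiles were 29.0, 41.6 and 2.0, so the site was near the bottom of the senescent list. The promoter of LRRC37B, chr17:32007133-32007412 on the plus strand, is shown because it held the only match to the CTCF core consensus at a peak of these windows for which a promoter sequence was at hand. The match, in capitals, reads on the other strand and covers -64 to -53 from the start, within 30 bp of all 3 summits.
LRRC37B: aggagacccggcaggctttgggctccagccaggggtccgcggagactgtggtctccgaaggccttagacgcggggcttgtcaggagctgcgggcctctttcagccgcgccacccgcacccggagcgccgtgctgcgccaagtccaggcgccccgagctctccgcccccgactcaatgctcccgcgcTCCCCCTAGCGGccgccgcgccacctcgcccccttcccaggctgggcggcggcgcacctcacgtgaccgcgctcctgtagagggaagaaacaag

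DNMT1 encodes the methyltransferase that copies DNA methylation. SMC1 was listed at its promoter in control cells at chr19:10194378-10195351, with the summit 94 bp before the start, and after ICM at chr19:10194494-10195345, with the summit 100 bp before it. Both were at percentile 43.9 by total signal, and at 40.1 and 80.3 by highest signal. No senescent SMC1 peak lay over this region, and the only senescent SMC1 peak of the window was 81.653 kb from the start at percentile 19.0. Its summit was 20.045 kb past the gene end, so only the edge of the peak reached the window. The count of DNMT1 among genes with a senescent SMC1 window peak rests on that edge. CTCF was not listed at DNMT1 itself but 13.46 kb past its end, at the start of EIF3G, a translation initiation factor gene, at percentiles 58.6, 80.1 and 82.2. Broad CTCF peaks with summits at 81.654 and 81.791 kb, likewise just outside the window, were further listed after ICM and in senescent cells, at percentiles 30.8 and 37.9.

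UHRF1 encodes the reader of hemimethylated DNA that recruits DNMT1. It held a site where CTCF and SMC1 had summits in all 6 lists, between 8.945 and 9.006 kb from the outermost start and 1658 to 1719 bp inside the innermost tabulated one. CTCF was at percentiles 87.0, 88.2 and 92.8 and SMC1 at 96.0, 98.1 and 98.0 in control, ICM-treated and senescent cells. A weaker SMC1 site at 12.1 kb was at 32.8, 43.0 and 49.9. In the window past the gene lay the start of KDM4B, an H3K9 demethylase gene, where SMC1 was at percentiles 92.0, 95.9 and 90.7 and CTCF had no peak. The senescent SMC1 list had 6 peaks in this window, against 4 in control and 4 after ICM, and the 3 sites listed in senescent cells alone lay past the gene end at percentiles 34.8, 27.3 and 19.7, with whole peaks of another list over 2 of them.

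CBX5 encodes HP1α, and its start lies close to that of HNRNPA1, an RNA-binding protein gene transcribed the other way. It was the only one of the 10 genes with a promoter peak in all 6 lists. The SMC1 summit lay at 346 bp in control and ICM-treated and at 291 bp in senescent cells, at percentiles 97.8, 86.3 and 92.0. By highest signal this peak was at 96.6, 97.7 and 58.3, so in senescent cells it kept a high total over a width of 1885 bp with a lower top. After ICM the region was split into this peak and a further one with its summit 475 bp upstream, at percentile 61.0. CTCF summits at the promoter differed, at 122 bp and 395 bp upstream in control and ICM-treated and 331 bp inside the gene in senescent cells, at percentiles 66.9, 73.1 and 14. Past the end of CBX5, at 65.2 kb from its start, CTCF was among the strongest of each list (96.9, 95.6 and 99.1), whereas SMC1 there was at 11.7 in control and 14.1 after ICM and was not listed in senescent cells. The senescent SMC1 list instead had a broad peak at 63.055 kb, at percentile 70.8. This SMC1 peak, chr12:54216782-54218259, lay within the senescent CTCF peak chr12:54214299-54218503, so the region held SMC1 away from the CTCF summit. The SMC1 site at 57.351 kb was at percentiles 58.6, 34.8 and 4.3.

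SUV39H1 encodes the H3K9 methyltransferase of constitutive heterochromatin and had no peak of either protein in any list. The nearest SMC1 summits were 97.574, 97.547 and 106.433 kb from its start, and the nearest CTCF summits 221.882, 106.541 and 106.495 kb. No value at this gene itself could therefore be compared.

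Over the 10 genes there were 25 CTCF sites and 39 SMC1 sites. Of the CTCF sites 10 were in all 3 lists and 12 in a single list, but a whole peak of another list lay over 10 of these 12, so most differed in the position of the summit and not in the presence of a peak. Of the SMC1 sites 11 were in all 3 lists and 20 in a single list, with a whole peak of another list over 12 of them and over 8 none. The same site counts were not made over the whole lists, so they do not tell whether these genes differ from others. An SMC1 summit of the same condition lay at 7 of 14 CTCF peaks in control (50%), 7 of 17 after ICM (41.2%) and 8 of 17 in senescent cells (47.1%). Over all CTCF peaks these shares were 48.9%, 46.6% and 34.8%. When whole peaks were allowed to overlap, the counts of CTCF peaks with an SMC1 peak were 11, 14 and 13 in control, ICM-treated and senescent cells.

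In these windows, peaks at which both proteins had a summit had higher median ranks than the rest. For each protein such peaks numbered 7 in control, 7 after ICM and 8 in senescent cells. The same medians were not taken over all peaks of the lists, so the difference is not shown to be particular to these genes. Among CTCF peaks of these windows the median percentile was 69.3 with and 50 without an SMC1 summit in control, 66.7 and 56.1 after ICM, and 76.6 and 13.7 in senescent cells. For SMC1 peaks the medians were 77.2 with and 45.0 without a CTCF summit in control, 87.2 and 43.9 after ICM, and 70.7 and 48.0 in senescent cells. By total signal the gap was widest in the senescent CTCF list, and by highest signal in the SMC1 list after ICM (90.3 with and 35.0 without).

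For the next medians, peaks of 2 lists were paired only where their summits lay directly less than 100 bp apart, without a chain. This left out the LMNA SMC1 sites at 31.8 kb (-40.25, senescent minus control) and at 8.4 kb (-1.16, ICM minus control). At the 12 SMC1 sites so paired between control and senescent cells, 10 were lower and 2 higher in the senescent list. The median difference in percentile, senescent minus control, was -6.59. Over all 6299 such pairs it was -1.94, with 55.1% lower. By highest signal the median over the 12 sites was -2.05, with 6 lower and 6 higher. From control to ICM the median over 14 SMC1 sites was 2.84, beside 3.94 over all 9679. For CTCF the median difference over 11 sites was 10.32 from control to senescent cells, beside 15.69 over all, and 15.87 over 11 sites from control to ICM, beside 8.61 over all 3595. The sites of LMNA made up 5 of the sites in all 3 lists for each protein. The SMC1 pairs between control and senescent cells also took in LMNA sites near 21.7 and 40.7 kb, held by those 2 lists alone. These medians therefore lean on that gene.

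**Figure D5:**
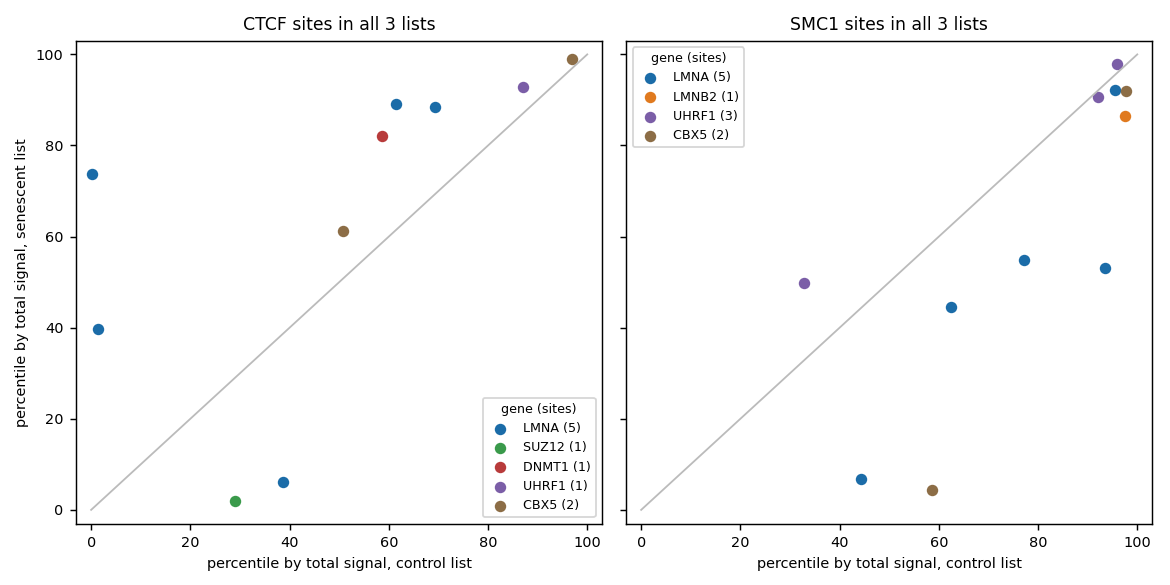
Percentile by total signal in the senescent list (vertical axis) against that in the control list (horizontal axis) for the 10 CTCF sites (left) and 11 SMC1 sites (right) that all 3 lists held, coloured by gene, with a line where both are equal. Of the LMNA sites, 4 of 5 lie above the line for CTCF and 5 of 5 below it for SMC1, and the UHRF1 site at 8.95 kb lies near the top of both panels.

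Other genes of the same pathways were counted from a list of 44, which covers the lamina and nuclear envelope, PRC2, DNA methylation, and H3K9 methylation with HP1. An SMC1 promoter peak was listed at 22 of them in control (50%), 17 after ICM (38.6%) and 13 in senescent cells (29.5%). The shares of all genes were 31.6%, 27.6% and 22.3%. Present in control and missing from the senescent list were 10 (22.7%), beside 11.9% of all genes. These 2 shares start from unlike control shares, 50% and 31.6%. Among genes with a control peak, 10 of the 22 were missing from the senescent list, and 2341 of 6215 over all genes. The opposite pattern was found at 1 gene, SYNE1, beside 2.57% of all genes. By group, the counts in control, ICM-treated and senescent cells were 5, 5 and 3 of 12 lamina and envelope genes, 6, 4 and 3 of 9 PRC2 genes, 2, 1 and 0 of 8 DNA methylation genes and 9, 7 and 7 of 15 H3K9 and HP1 genes. CTCF promoter peaks were at 4, 10 and 8 of the 44, beside 8.76%, 12.6% and 9.55% of all genes.

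The control SMC1 list alone held a promoter peak at 6 of the 44 genes. This pattern was not counted over all genes, so the 6 are a description and not shown to be many or few. The wider class, in control and not in ICM-treated cells, held 7 of the 44, beside 6.97% of all genes. The 6 genes were the PRC2 accessory gene MTF2 (percentile 0.93), the H3K9 methyltransferase gene SETDB1 (24.6), the demethylation enzyme gene TET2 (46.7), the inner membrane protein gene LEMD2 (21.1), the UHRF1 paralogue UHRF2 (14.9) and CHAF1A (16.2), a subunit of the histone chaperone CAF-1. By total signal all 6 were below the median of the control list, but by highest signal SETDB1 (73.7), CHAF1A (63.5) and UHRF2 (56.8) were above it.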

How the data were processed

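CTCF and SMC1 CUT&Tag peak lists of IMR90 cells were used, with 1 library per group and groups taken from the sample titles. The titles with p number 34 carry no condition, and the series design was used to read them as senescent. Per the labels and the methods of the study, the authors aligned reads to GRCh38 with Bowtie2 (version 2.3.4.1), used Picard (version 2.20.7), deepTools and SEACR (version 1.3), scaled by carried-over bacterial DNA, and called peaks per library at a stringent top 1%. The deposited total and highest signal of each peak are the authors' coverage values. All are whole numbers, so no scaling factor is visible in them. Each CTCF list is longer than the count that the study gives after its CTCF motif filter, so the lists are not the filtered sets. Which of their peaks hold a motif was not checked. Depth is not given in the lists, which limits the precision of any absence.

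Here the mitochondrial peak was dropped, and peaks were placed on RefSeq GRCh38.p14 genes. A start was known for 19675 of 20037 protein-coding genes, with the strand from RefSeq promoters (15842 genes) or from GENCODE release 44 (3833 genes, strand only). Exons and introns were not annotated. Promoter windows reach from 250 bases before to 50 bases from the start on, and motifs were searched on both strands. The promoter, window and site rules were tested on simulated peaks. Python 3.11.15, pandas 2.3.3, numpy 2.4.6 and matplotlib 3.10.9 were used. No test was run. The 10 genes, the lists and the rules were chosen with earlier results of these data known. All 10 genes are named. Of the other pathway genes, those with an SMC1 promoter peak in control alone are named, as are neighbours whose start lies within 1 kb of a described summit.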

Additional observations from a re-analysis of the deposited data

Results flagged for a closer look

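Between control and senescent cells the number of peaks in the windows of the 10 genes moved in opposite directions for the 2 proteins. For CTCF there were 14 peaks in control and 17 in senescent cells, a difference of 3. For SMC1 there were 24 and 21, a difference of -3. With 1 library per group this contrast was not tested. It went the same way as the length of the whole lists, which were 4673 and 8577 peaks for CTCF and 14883 and 12927 for SMC1, and their part in the result was not tested. With CTCF lists of equal length the CTCF direction turned, to 14 peaks in control and 8 in senescent cells.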

How the results depend on the processing

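Over 18 counts and 12 alternatives, 71 of 107 values stayed within 1.5 times the reported count and 36 moved further. For each, the cause was not tested, apart from alternatives that keep fewer peaks or less sequence. Genes with a CTCF promoter peak in control rose from 1 to 2 with a promoter distance of 2500 bp, and likewise when any base of a peak counted. With lists of 1 antibody cut to equal length by total signal, CTCF promoter peaks were at 1 gene after ICM and 0 in senescent cells, the senescent CTCF list had 8 window peaks, 6 CTCF sites were in all 3 lists and 5 senescent CTCF peaks had an SMC1 summit. Cut by highest signal, the counts were again 1, 0, 8 and 5, and the ICM list had 11 CTCF window peaks. Keeping only peaks at or above the median total signal of each list left CTCF promoter peaks at 1 gene after ICM and 0 in senescent cells, SMC1 promoter peaks at 2 genes in control and 1 after ICM, and 1 gene with one in control and not in senescent cells. It also left 8, 10 and 8 CTCF and 13, 13 and 10 SMC1 window peaks in control, ICM-treated and senescent cells, 6 CTCF and 7 SMC1 sites in all 3 lists, and an SMC1 summit at 4, 4 and 4 CTCF peaks. Gene bodies alone held 8, 10 and 7 CTCF peaks, and 12 and 10 SMC1 peaks after ICM and in senescent cells. When whole peaks could overlap, 11, 14 and 13 CTCF peaks met an SMC1 peak. A promoter distance of 500 bp, 50 kb on each side, joining of peaks under 1 kb apart and reciprocal overlap of sites moved no count by over 1.5 times. The use of any tabulated start, added after the data were seen, gave 5, 3 and 1 genes with an SMC1 promoter peak, with LMNA joining in control and after ICM. The count of 3 genes with an SMC1 promoter peak in control and not in senescent cells was also 3 under equal list lengths and 4 with any start. No paired analysis was possible because each group has 1 library and no result comes from a test.

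Each statement rests on 1 library per group, so no difference between conditions was set against variation between cultures. A peak list shows where signal passed a threshold of its own library, and weak peaks such as those of EZH2 and LBR lie near that threshold. Percentiles are relative to lists of unequal length.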
